A study of Mus musculus with 18 samples.

Results

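The 7 genes described here, Hmgcs1, Idi1, Fdps, Fdft1, Sqle, Cyp51 and Insig1, belong to cholesterol synthesis and its feedback control. They were taken by symbol from the 23238 gene symbols of the count tables of mouse hippocampus and cortex, and all 7 were found, with 52 to 3007 counts per library, and passed the filter on low counts in every comparison. Male C57BL/6 mice, 7 weeks old at the start, received urban particulate matter (UPM, the certified city dust SRM 1648a) intranasally, or phosphate-buffered saline as the vehicle control. Short-term groups received UPM daily for 3, 5 or 7 days, while long-term groups were dosed 2 times per week over 3, 8, 12, 16 or 20 weeks. Each group's RNA was pooled across its mice, which left each tissue with 1 control, 3 short-term and 5 long-term libraries, 18 in all. When the control tissue was taken is not stated in the labels. Among exposed mice, longer exposure also means older mice, and exposure time and age cannot be told apart. Since every exposure time has a single library per tissue, different times were treated as replicates of an exposure class, and each p-value reflects variation among these pools and not among individual mice.

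By the naming of their sample columns, the libraries fall into 2 sets. The early set holds 3, 5 and 7 days and 3 weeks (8 libraries), and the other holds the control and 8 to 20 weeks (10 libraries). Short-term exposure and control therefore cannot be told apart from the library set. Total counts were 5.43 to 8.97 M per library. The share of the ribosomal transcript Rn45s was 14.8% to 18.6% among early libraries, and 7.75% to 12.9% among the rest. The tissue labels matched their markers: all 8 hippocampus markers were higher in hippocampus (edgeR quasi-likelihood test, adjusted p under 0.05), and 7 of 8 cortex markers were lower there.

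Cells make cholesterol from acetyl-CoA through the mevalonate pathway. Hmgcs1 makes HMG-CoA, from which mevalonate is formed. Idi1 interconverts the isoprenoid building blocks, Fdps joins them to farnesyl diphosphate, and Fdft1 joins a pair of farnesyl units to squalene, the first step committed to sterols. Sqle oxidises squalene, and Cyp51 removes a methyl group from lanosterol. Insig1 is no enzyme: it holds the SREBP-SCAP complex in the endoplasmic reticulum when sterols are plentiful, and its own gene is a target of SREBP, the transcription factor that drives the other members. The brain makes its cholesterol on site, since the blood-brain barrier keeps lipoproteins out, and oligodendrocytes need much of it for myelin.

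RefSeq promoter sequences (GRCm38.p6, 250 bases before to 50 after the start) were matched for 4 of the 7 members. They are shown for the 3 whose values are described most closely below, Hmgcs1 for its difference between the tissues, Idi1 for its difference from the control and Insig1 for its spread between the library sets. They are written 5′ to 3′ on the strand of the gene, and capitals mark the letters of the sterol response element TCACNCCAC and of CCAAT (the site of NF-Y, a partner of SREBP) on either strand.
Hmgcs1 (chr13:119690101-119690400, + strand): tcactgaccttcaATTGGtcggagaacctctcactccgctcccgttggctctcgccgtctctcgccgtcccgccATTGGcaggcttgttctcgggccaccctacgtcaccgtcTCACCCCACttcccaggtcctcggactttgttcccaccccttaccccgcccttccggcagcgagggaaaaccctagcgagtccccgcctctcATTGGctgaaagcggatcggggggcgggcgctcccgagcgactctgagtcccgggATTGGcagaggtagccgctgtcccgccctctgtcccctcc
Idi1 (chr13:8885356-8885655, + strand): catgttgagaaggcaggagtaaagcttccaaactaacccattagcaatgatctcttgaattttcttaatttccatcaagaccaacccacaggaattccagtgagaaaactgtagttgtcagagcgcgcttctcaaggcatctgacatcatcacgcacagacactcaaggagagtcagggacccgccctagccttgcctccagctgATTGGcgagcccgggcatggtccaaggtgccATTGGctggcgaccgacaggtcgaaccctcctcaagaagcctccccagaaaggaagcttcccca
Insig1 (chr5:28071162-28071461, + strand): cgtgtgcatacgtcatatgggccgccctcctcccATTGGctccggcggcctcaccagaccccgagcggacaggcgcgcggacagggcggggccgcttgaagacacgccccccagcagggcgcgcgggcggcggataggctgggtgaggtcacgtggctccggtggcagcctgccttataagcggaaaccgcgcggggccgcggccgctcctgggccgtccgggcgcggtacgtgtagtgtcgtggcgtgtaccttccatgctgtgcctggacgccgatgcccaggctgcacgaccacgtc

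The Hmgcs1 window held 1 match to the sterol response element, 137 bases before the start, and 4 matches to CCAAT. Idi1 held 2 CCAAT matches, Insig1 held 1, and Cyp51, whose window is not printed, held 1. Of 32851 mouse promoter windows of the same length, 1.24% held the sterol response element and 37.4% held CCAAT on either strand. All 4 member windows also held the GC box GGGCGG, as did 35.7% of all windows. Insig1 alone of the 4 held CACGTG, an E-box core found in 7.15%. The searched motifs do not overlap one another in these windows, and a match is a description of the letters, not of binding.

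Levels are given in CPM, counts divided by the library total and set to a common total, scaled with TMM, edgeR's trimmed mean of M-values, and 1 count equals 0.112 to 0.184 CPM before that scaling. Hmgcs1 (GENCODE M21, GRCm38, chr13:119690379-119708260, + strand) stood in hippocampus at 266.6 CPM in the control. It was at 270.3, 260.4 and 257.7 CPM at 3, 5 and 7 days, and at 330.4, 302.2, 269.5, 230.6 and 270.8 CPM at 3, 8, 12, 16 and 20 weeks. In cortex the control had 299.1 CPM, the short-term libraries 358.9, 308.2 and 385.8 CPM, and the long-term libraries 347.1, 287.3, 329.9, 293.1 and 271.2 CPM. Its highest library, cortex at 7 days, was 1.67 times its lowest, hippocampus at 16 weeks. In both tissues some UPM libraries lay above the control and others below it.

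Idi1 (chr13:8885501-8892451, + strand) had the widest range of the 7, with a highest library 3.14 times its lowest. In hippocampus the control had 11.5 CPM, the libraries of 3, 5 and 7 days had 12.4, 14.9 and 20.8 CPM, and those of 3, 8, 12, 16 and 20 weeks had 19.7, 15.3, 9.86, 12.5 and 12.3 CPM. In cortex the control had 6.62 CPM, the short-term libraries 12.8, 20.0 and 18.8 CPM, and the long-term libraries 17.5, 9.45, 13.7, 13.1 and 13.8 CPM. All 8 UPM libraries of cortex lay above their control, as they did for 9.47% of genes, and 7 of 8 did in hippocampus, where 12 weeks was lower. The cortex control rests on 52 counts, or 6.94 CPM before TMM scaling, with a 95% exact Poisson interval of 5.19 to 9.10 that covers counting error only.

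Fdps (chr3:89093588-89101959, - strand) lay between 16.7 and 23.0 CPM in hippocampus, with the control at 17.7 CPM. In cortex the control had 19.5 CPM, the short-term libraries 17.2, 17.7 and 24.9 CPM, and the long-term libraries 21.6, 21.0, 22.6, 21.0 and 31.0 CPM. The 20-week cortex library was the highest of the 18, while hippocampus at the same time, at 21.0 CPM, was within the range of its other libraries. In GENCODE M21, 1124 exon bases of Fdps are shared with Gm43738 on the same strand, whose symbol is not among those of the tables, so the 2 cannot be separated.

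Fdft1 (chr14:63145150-63179578, - strand) had 49.9 CPM in the hippocampus control, 39.3, 38.7 and 42.4 CPM at 3, 5 and 7 days, and 53.0, 45.5, 39.6, 42.6 and 39.4 CPM at 3, 8, 12, 16 and 20 weeks. In cortex it had 52.0 CPM in the control, 41.1, 61.7 and 59.4 CPM in the short-term libraries, and 54.1, 46.5, 52.4, 52.4 and 53.2 CPM in the long-term ones. The tissues nearly met in the control, at 3 days, at 3 weeks and at 8 weeks, and cortex was the higher at the other times. Sqle (chr15:59315077-59331192, + strand) lay between 28.9 and 42.9 CPM in hippocampus and between 31.3 and 48.9 CPM in cortex, and was lowest at 5 days in both. Cyp51 (chr5:4081145-4104746, - strand) lay between 38.8 and 66.7 CPM in hippocampus. In cortex the Cyp51 control, at 62.0 CPM, was above all 8 UPM libraries (47.6 to 61.8 CPM), a placing that 10.1% of genes shared, and the nearest library differed from it by less than 1 CPM.

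Insig1 (chr5:28071363-28078662, + strand) ranged 3.11-fold over the 18 libraries. In hippocampus it had 22.1 CPM in the control, 27.5, 13.8 and 21.4 CPM at 3, 5 and 7 days, and 24.6, 24.8, 20.2, 20.4 and 19.9 CPM at 3, 8, 12, 16 and 20 weeks. In cortex it had 18.2 CPM in the control, 32.1, 33.2 and 21.8 CPM in the short-term libraries, and 42.9, 25.1, 18.6, 18.1 and 18.3 CPM in the long-term ones. The cortex libraries of 3 and 5 days and 3 weeks, all of the early set, lay above every other library of either tissue, and hippocampus at 5 days lay below them all.

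**Figure D1:**
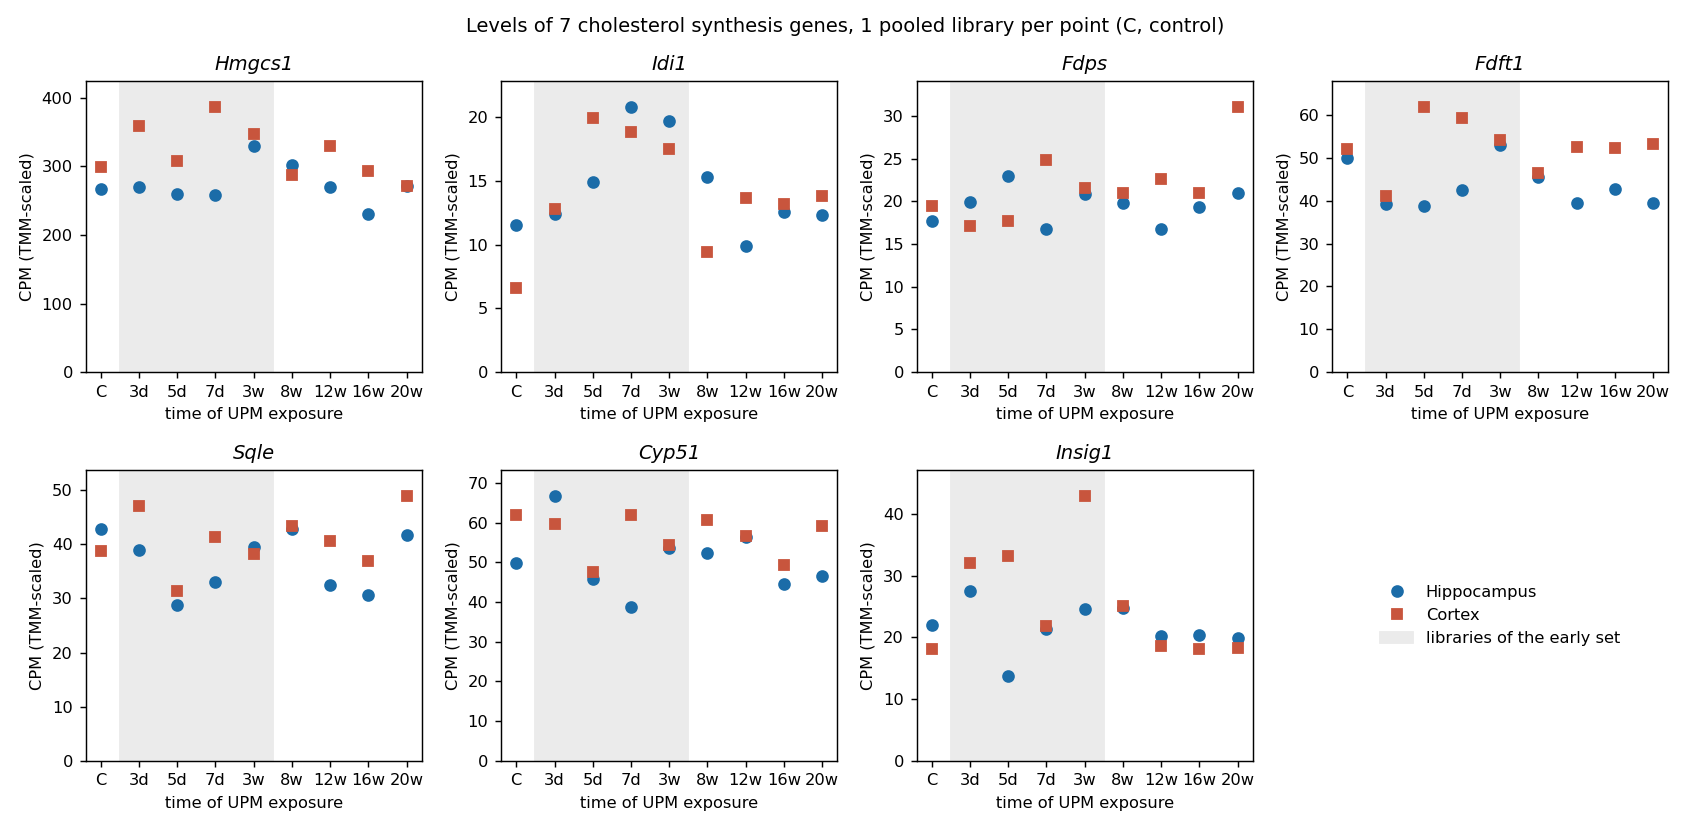
TMM-scaled CPM (vertical axes, from 0) of the 7 genes in the 18 pooled libraries, by time of UPM exposure (horizontal axis; C, control; d, days; w, weeks), with circles for hippocampus, squares for cortex and shading for the early library set. Idi1 is lowest in the cortex control at 6.62 CPM, Insig1 is highest in cortex at 3 weeks at 42.9 CPM, and Fdft1 is lower in hippocampus at every time.

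The first comparison was between the tissues, with the exposure time as a factor. Fdft1 and Hmgcs1 were lower in hippocampus than in cortex. The log2 difference (hippocampus minus cortex) of Fdft1 was -0.27 ± 0.09 (SE, 9 libraries per tissue; 95% interval -0.45 to -0.09; edgeR adjusted p = 0.0361), and it was lower at 9 of 9 times, as were 5.6% of genes. That of Hmgcs1 was -0.22 ± 0.07 (95% interval -0.37 to -0.07, edgeR adjusted p = 0.0378). Hmgcs1 was lower at 8 of 9 times, with a difference of -0.0023 at 20 weeks. Cyp51, which did not pass, was also lower at 8 of 9 times, and the share of all genes with that count is not given here. So 2 of 7 members passed, both lower, where 9.26% of the 14865 genes tested passed as lower and 16.9% passed in all. In bulk tissue fewer cells of a type and less RNA per cell cannot be told apart.

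The other 5 members did not pass in that comparison. Cyp51 differed by -0.18 ± 0.08 (95% interval -0.36 to 0.00; adjusted p = 0.183), and Sqle by -0.15 ± 0.08 (-0.32 to 0.02; adjusted p = 0.235). Fdps differed by -0.15 ± 0.11 (-0.39 to 0.09), Insig1 by -0.18 ± 0.14 (-0.48 to 0.13) and Idi1 by 0.07 ± 0.14 (-0.23 to 0.36). Their intervals hold 0 and leave room for differences about as large as those of Fdft1 and Hmgcs1.

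Both calls lay near the threshold. Neither held with scaling by total counts alone, without the time as a factor (adjusted p = 0.0543 for Fdft1 and 0.0905 for Hmgcs1), or within either library set. Leaving out 1 exposure time at a time, which removes a library of each tissue, left 0 to 2 members called: 2 without 3 weeks or without 8 weeks, 1 without the control, 3 days or 20 weeks, and 0 without 5 days, 7 days, 12 weeks or 16 weeks. The values themselves moved less, from -0.31 to -0.23 for Fdft1 and from -0.26 to -0.18 for Hmgcs1.

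The 3′ end of Fdft1 shares 774 exon bases with Ctsb, a lysosomal protease gene on the opposite strand, and that of Cyp51 shares 166 with Akap9, a scaffold gene. The strand setting of the counting is not given in the sources used here, and without it reads of such partners cannot be told apart. Ctsb was itself lower in hippocampus (-0.27 ± 0.07, edgeR adjusted p = 0.00953), as was Akap9 (-0.28 ± 0.08, edgeR adjusted p = 0.0233). Their part in the values of Fdft1 and Cyp51 was not tested.

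The enzymes on either side of the members were also lower in hippocampus where they passed. With the members, 23 genes of the pathway were tested: 6 were lower and 0 higher, where 9.26% of all genes passed as lower. The difference was negative for 20 of 23, as for 7562 of 14865 genes. Its median was -0.15 against 0.00 over all genes. Of the 6, Fdft1, Hmgcs1, Acat2 and Ebp are named here. Acat2, which makes the acetoacetyl-CoA that Hmgcs1 uses, differed by -0.29 ± 0.07 (edgeR adjusted p = 0.00879). Of the later enzymes, Ebp, the sterol isomerase, differed by -0.37 (23.6 to 37.1 CPM in hippocampus and 36.1 to 48.2 CPM in cortex). Pmvk, a kinase of the mevalonate stretch, did not pass (-0.22 ± 0.10, edgeR adjusted p = 0.131).

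Within the control and late set, 4 of 23 pathway genes were lower in hippocampus (Acat2 and Ebp among them) and 0 higher, where 10.9% of genes were lower. Within the early set 0 of 23 passed, where 4.67% of genes did, and 18 of 23 were negative, as were 7364 of 14036 genes. Fdft1 had -0.25 in the former and -0.29 in the latter, and Hmgcs1 had -0.15 and -0.30. Insig1 had 0.13 ± 0.10 in the control and late set and -0.55 ± 0.22 in the early set, neither past the threshold (adjusted p = 0.394 and 0.201 by edgeR). The difference between the sets was not tested as such.

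**Figure D2:**
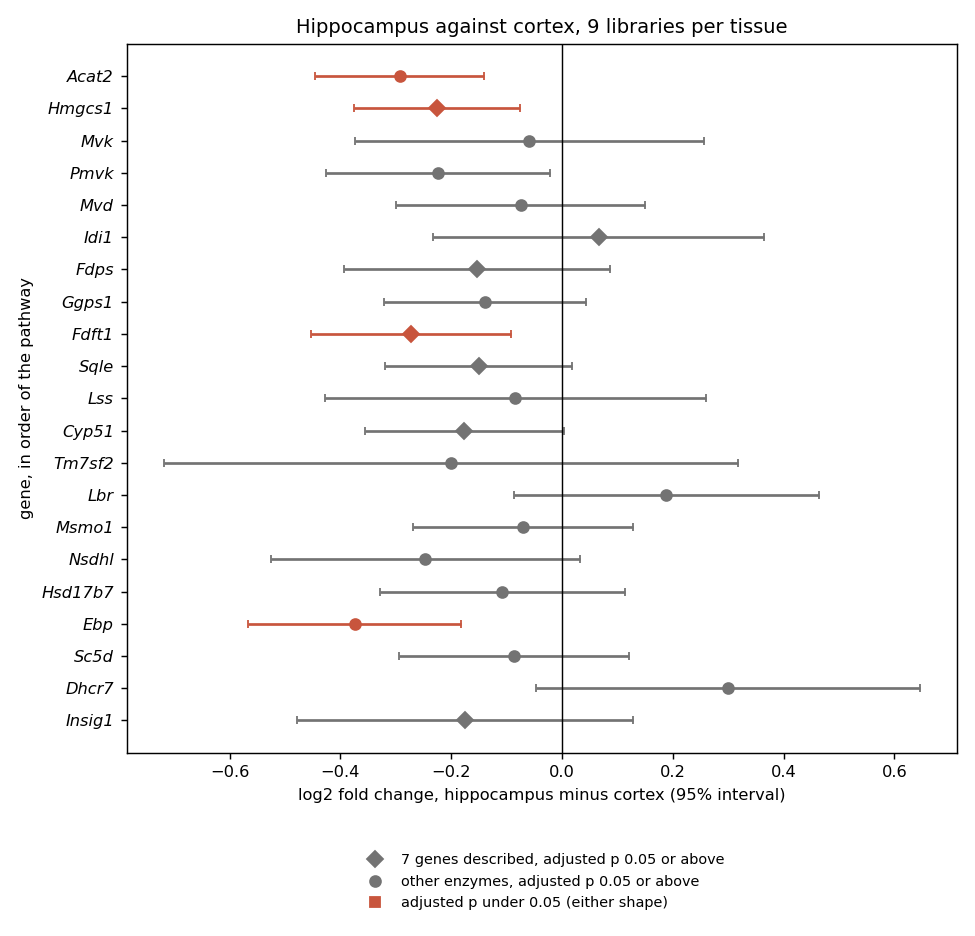
Log2 difference between hippocampus and cortex (horizontal axis; points, estimates; bars, 95% intervals; negative is lower in hippocampus) for 21 of the 23 pathway genes tested, in pathway order, with diamonds for the 7 members and red for adjusted p under 0.05. Of the 6 genes that passed, 4 are drawn (red). These points, among them Fdft1 at -0.27 and Hmgcs1 at -0.22, all lie to the left of 0.

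Genes that control or use the pathway gave a mixed picture between the tissues. Over all genes, 9.26% passed as lower and 16.9% in either direction. Of 13 genes of SREBP control and lipoprotein uptake, 1 was higher in hippocampus (Mylip, a ubiquitin ligase, 0.50) and 2 were lower, among them Stard4, a sterol carrier, at -0.48. Of 13 genes of cholesterol export, storage and turnover, 2 were higher in hippocampus and 1 was lower. Apoe, the main apolipoprotein of the brain, was higher at 0.26, as was the sterol exporter Abcg4 at 0.34. Cyp46a1, the neuronal enzyme that turns cholesterol into 24S-hydroxycholesterol, was lower at -0.46. Of 13 genes of fatty acid synthesis 1 was higher (Scd2, a desaturase, 0.19) and 0 were lower.

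Cell markers differed between the tissues as well. Of 12 neuron markers 6 were lower in hippocampus and 0 higher, with a median of -0.20, and their summed level was 5974 to 7948 CPM there against 7513 to 8682 CPM in cortex. Of 12 astrocyte markers 6 were higher, with a median of 0.21. Of 12 oligodendrocyte markers 0 passed, 11 were positive and the median was 0.21. Over all genes, 9.26% passed as lower and 16.9% in either direction. Markers of other structures differed as well. All 8 striatum markers passed as lower in hippocampus, with a median of -1.80. Of 9 choroid plexus markers 2 passed as higher and 9 were positive, with a median of 1.61. Of 7 thalamus and habenula markers 1 was higher and 1 lower. The part of the cell mixture, or of the tissue taken, in the values of the members was not tested.

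The next comparisons set UPM against the control over both tissues, with tissue as a covariate; they share the same 2 control libraries. No member passed in any of them. At 3 to 7 days 0 of 7 members passed, where 4.35% of 14209 genes did. At 8 to 20 weeks 0 of 7 passed and 0% of 14465 genes did (676 genes, 4.67%, at an unadjusted p under 0.05), and with all UPM libraries 0 of 7 passed and 0% of 14865 genes did (272 genes, 1.83%, unadjusted). The alternative fits of these 3 comparisons, single libraries left out included, called no member either.

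Idi1 had the largest difference of the 7 in each. At 3 to 7 days it stood above the control by 0.87 ± 0.32 (log2; 95% interval 0.19 to 1.55; edgeR adjusted p = 0.146, rank 1526 by p among 14209 genes). At 8 to 20 weeks, within a single library set, the difference was 0.49 ± 0.22 (0.01 to 0.96; edgeR adjusted p = 0.994, rank 607 among 14465). Over all UPM libraries it was 0.72 ± 0.29 (0.11 to 1.32, edgeR adjusted p = 0.98, rank 78 among 14865). These values hung on the cortex control: without it the difference at 3 to 7 days was 0.49, that at 8 to 20 weeks 0.12 and that over all UPM libraries 0.35, and without the hippocampus control they were 1.37, 0.92 and 1.17.

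The other 6 members lay between -0.17 (Sqle) and 0.26 (Insig1) at 3 to 7 days, and between -0.13 (Fdft1) and 0.22 (Fdps) at 8 to 20 weeks, and all their intervals held 0. Each interval limits only the mean difference over both tissues and the pooled times, not a change in 1 tissue or at 1 time. At 8 to 20 weeks that of Hmgcs1 ran from -0.21 to 0.22, that of Fdft1 from -0.34 to 0.08 and that of Cyp51 from -0.30 to 0.18. At 3 to 7 days they were wider, -0.21 to 0.39 for Hmgcs1, -0.62 to 0.27 for Sqle and -0.35 to 0.87 for Insig1. Against the control of its tissue, Insig1 had log2 values of 0.81, 0.86 and 0.26 in cortex at 3, 5 and 7 days. In hippocampus it had 0.31, -0.67 and -0.05. The median of the 7 was 0.08 at 3 to 7 days against -0.01 over all genes, and 0.01 at 8 to 20 weeks against 0.01.

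**Figure D3:**
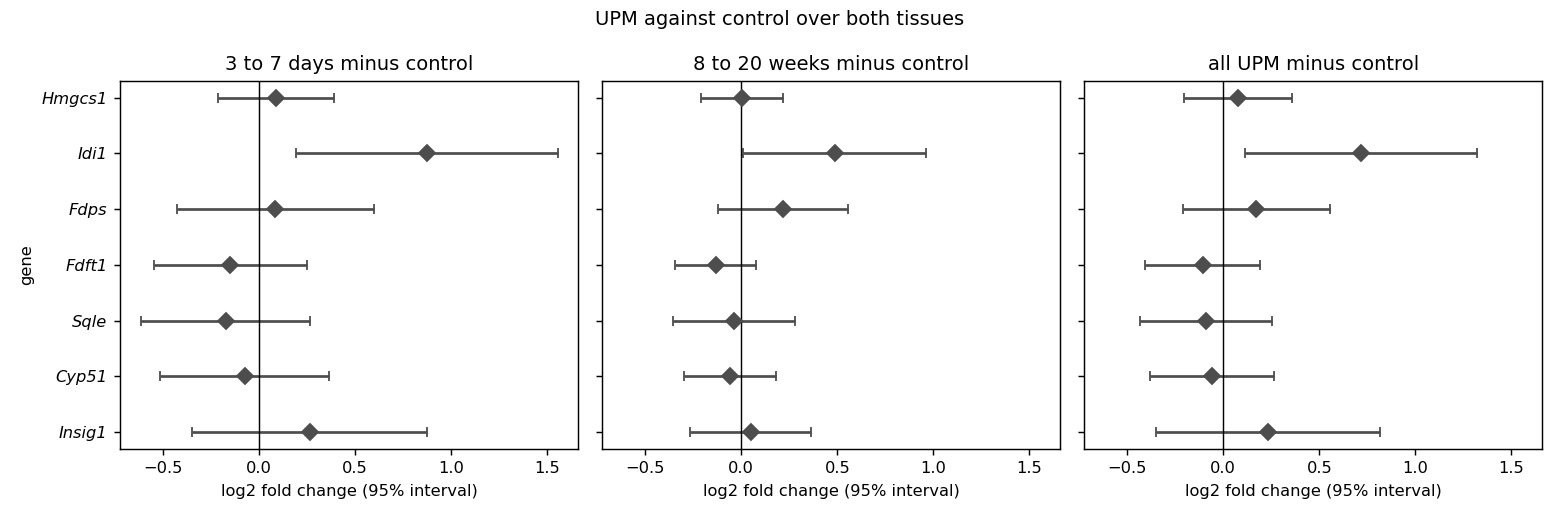
Log2 difference from the control over both tissues (horizontal axes; diamonds, estimates; bars, 95% intervals) for the 7 genes at 3 to 7 days, at 8 to 20 weeks and over all UPM libraries, each against the same 2 control libraries. Idi1 lies to the right of 0 in all 3 panels (0.87, 0.49 and 0.72), with no adjusted p under 0.05, and the intervals of the other 6 genes cross 0.

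Of the remaining enzymes of the pathway, 0 passed in these comparisons. Ggps1, which makes geranylgeranyl diphosphate, had 0.53 ± 0.20 at 3 to 7 days (edgeR adjusted p = 0.147), and Msmo1, which removes methyl groups from sterols, had 0.37 ± 0.18 (edgeR adjusted p = 0.288). Pmvk had 0.24 ± 0.12 at 8 to 20 weeks (edgeR adjusted p = 0.994). Of 13 genes of export, storage and turnover, 1 was higher and 1 lower at 3 to 7 days, where 4.35% of all genes passed. Apoe was higher, at 0.64 ± 0.14 (edgeR adjusted p = 0.0233). Lrp1, a receptor for Apoe, was lower, at -0.55 ± 0.14 (edgeR adjusted p = 0.0388). Of the SREBP list 0 passed there, with Mylip at 1.04 ± 0.29 (edgeR adjusted p = 0.0579).

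Transcripts listed here under RNA quality also differed in the same contrast. No direct measure of RNA quality was used, and what their difference stands for was not tested. Of 7 such transcripts 5 were lower at 3 to 7 days and 1 was higher, where 4.35% of all genes passed. The lower ones were Miat (-2.87), Meg3 (-2.81), Snhg11 (-2.65) and the nuclear long non-coding RNAs Malat1 (-2.06) and Neat1 (-1.52). Rn45s was higher by 0.93. The summed level of the list, most of it Rn45s, spanned 156621 to 214704 CPM over early libraries, against 93865 to 154804 CPM over the rest. Its part in the values of Idi1, Apoe and Lrp1 was not tested, and it cannot be told apart from short-term exposure.

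Long-term exposure was then set against short-term exposure within each tissue. In hippocampus 0 of 7 members passed, where 0.273% of 13908 genes did, and in cortex 0 of 7 passed and 0% of 13762 genes did (2921 genes, 21.2%, at an unadjusted p under 0.05). In cortex the largest values were those of Idi1 (-0.35 ± 0.22), Insig1 (-0.24 ± 0.28) and Fdps (0.23 ± 0.19), and in hippocampus those of Idi1 (-0.20 ± 0.26) and Sqle (0.16 ± 0.17). No member's long-against-short difference was shown to differ between the tissues: 0 of 7 passed, with 0% of 14427 genes passing (1124 genes, 7.79%, unadjusted), and the largest were Insig1 at 0.31 ± 0.38 (edgeR adjusted p = 0.905) and Hmgcs1 at 0.29 ± 0.18 (edgeR adjusted p = 0.753).

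The 3-week libraries count as long-term but belong to the early set, and leaving them out changed the cortex result. Set against 3 to 7 days, the cortex libraries of 8 to 20 weeks were lower in Insig1 by 0.54 on the log2 scale (-0.54 ± 0.18, 95% interval -0.94 to -0.15, edgeR adjusted p = 0.0482). The 4 later libraries held 18.1 to 25.1 CPM and the 3 earlier ones 21.8 to 33.2 CPM, so the groups overlapped, through 7 days and 8 weeks. This was 1 of 7 members, where 11.8% of 13657 genes passed as lower. Ggps1 (-0.57 ± 0.13, edgeR adjusted p = 0.00851) and Msmo1 (-0.47 ± 0.13, edgeR adjusted p = 0.0171) passed as well, so that 3 of 23 pathway genes were lower and 0 higher. In hippocampus the same contrast called 0 of 7 members and 1 of 23 pathway genes, Ggps1 (-0.67 ± 0.16, edgeR adjusted p = 0.0199), where 8.31% of genes passed as lower, and Insig1 had 0.04 ± 0.22 (edgeR adjusted p = 0.931). In this contrast the exposure classes and the library sets are the same split, and cannot be told apart.

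Within the early set, 3 weeks was set against 3 to 7 days over both tissues. Of the 7 members 0 passed, with 0% of 14036 genes passing (606 genes, 4.32%, unadjusted). Insig1 had the largest value, 0.39 ± 0.26 (95% interval -0.16 to 0.93; edgeR adjusted p = 0.999), and came from 42.9 CPM in cortex and 24.6 CPM in hippocampus at 3 weeks. The others lay between 0.00 (Cyp51) and 0.19 (Fdft1).

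From 8 to 20 weeks a slope per 10 weeks was fitted within the late libraries, so that it does not cross the library sets. In both tissues the sample column of 8 weeks carries the number 1, as that of the control does. Those of 12, 16 and 20 weeks carry the number of their weeks. The slope follows exposure time and age alike, which cannot be told apart. Of the 7 members 0 passed, where 0.286% of 13968 genes did. Insig1 had a slope of -0.30 ± 0.12 (95% interval -0.57 to -0.04; edgeR adjusted p = 0.433, rank 906 by p among 13968 genes). That slope was -0.19 without cortex at 8 weeks, and -0.49 (edgeR adjusted p = 0.0516) with the 3-week libraries of the early set added. Fdps had 0.26 ± 0.14 (-0.04 to 0.56), which was 0.07 without cortex at 20 weeks, 0.41 without hippocampus at 8 weeks and 0.13 with the 3-week libraries added. Hmgcs1 and Cyp51 both had -0.14, Idi1 had 0.08, Sqle 0.02 and Fdft1 0.00, and the median of the 7 was 0.00.

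Over the same weeks the markers of oligodendrocytes, the cells that make myelin, fell: 9 of 12 passed as lower, where 0.272% of genes did, and the median slope was -1.13. Mobp fell by 1.56 per 10 weeks on the log2 scale, Mag by 1.23 and Mog by 1.57. Their summed level went from 7208 CPM at 8 weeks to 1938 CPM at 20 weeks in hippocampus, and from 6127 to 2947 CPM in cortex, while the 7 members summed to 503 and 452 CPM in hippocampus and 493 and 495 CPM in cortex. This count rested on the 8-week libraries, whose sample columns carry the same number as those of the control. Without either 8-week library 0 oligodendrocyte markers passed, and without any other single library 6 to 11 did. The list of oligodendrocyte markers was chosen with earlier results of these data known. Markers of nearby structures had negative slopes too, with 0 passing. These were 7 of 7 for thalamus and habenula (median -0.71) and 8 of 8 for striatum (median -0.59). Of 8 cortex markers 6 were positive (median 0.28). The part of the tissue taken into each pool in these slopes was not tested.

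**Figure D4:**
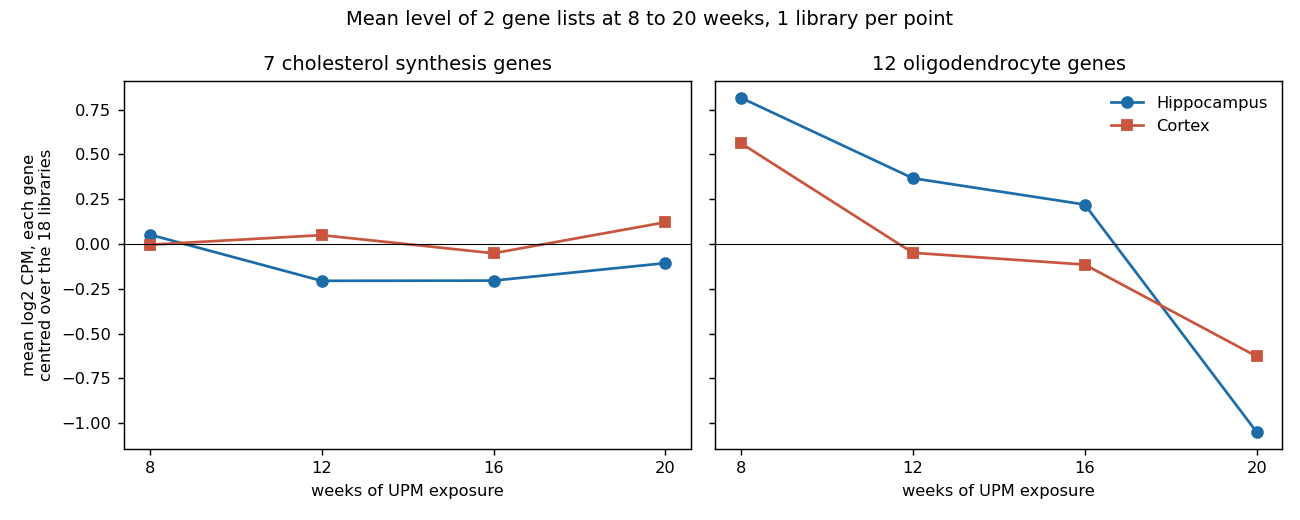
Mean log2 CPM of the 7 cholesterol synthesis genes (left) and of 12 oligodendrocyte markers (right), each gene centred over the 18 libraries (vertical axis), against weeks of UPM exposure (horizontal axis), 1 pooled library per point. The marker list drops in hippocampus (0.82 at 8 weeks, -1.05 at 20 weeks) and in cortex (0.56 and -0.63). The 7 genes stay between -0.21 and 0.12. Age rises with the weeks of exposure.

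The members showed little common movement across the 18 libraries. After centring log2 CPM within each tissue, the 21 pairs of members had a median Pearson correlation of 0.15, from -0.43 (Fdps with Insig1) to 0.50 (Sqle with Cyp51), and 15 were positive. Centred within tissue and library set, the median was 0.16 and 16 were positive. Centred within tissue, Hmgcs1 followed the mean of the other 6 most closely (0.61) and Fdps least (0.01). Centred within the sets as well, Sqle was the closest (0.49), ahead of Hmgcs1 (0.44), and Insig1 the least close (0.07), with Fdps at 0.24. These are descriptions over 18 libraries that share pools, depth and scaling, and low counts weaken them.

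Of 10946 other genes with a mean of at least 5 CPM, the 8 most like the members' mean pattern were Nans (0.83), BC029214 (0.82), Cetn2 (0.82), Wdr38 (0.81), Impact (0.81), Lbhd1 (0.80), Pnpla8 (0.80) and Rpl36 (0.79), by Pearson correlation over the 18 libraries. Within the library sets the same genes had 0.68 (Pnpla8) to 0.80 (Cetn2). The 6 other genes of the mevalonate stretch had a median of 0.45, and 0.49 within the sets, against 0.02 over all other genes by both measures. Pmvk had 0.67 and Acat2 0.64, while Mvd of the same stretch had -0.25. The later enzymes, from -0.45 (Lss) to 0.65 (Msmo1), had a median of 0.06, and 0.27 within the sets. Medians of some cell markers were also positive: 0.39 for microglia, 0.32 for red blood cells and 0.25 for astrocytes. Within the sets these were 0.13, -0.19 and 0.12. Other marker lists were higher within the sets. Thalamus and habenula markers had 0.18, and 0.26 within the sets. Cortex markers had 0.09 and 0.18, and oligodendrocyte precursor markers -0.01 and 0.15. Oligodendrocyte markers had a median of -0.13 by both measures. RNA quality transcripts had -0.48, and -0.02 once the sets were centred.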

How the data were processed

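RNA was extracted with TRIzol and pooled within a group, and libraries were made with a 3′ oligo-dT kit and read as single 75-base reads, per the labels' protocols. The authors deposited 18 files of unnormalised read counts, each with 23282 lines named by gene symbol. The submitters' processing notes name Bowtie2, bedtools, edgeR and the build mm10; versions, annotation and the strand setting are not given in the sources used here. Lines of repeated symbols were summed, and 27 symbols turned into dates in 2 files were restored. A floor of 3 counts equals 0.335 to 0.552 CPM.

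Groups followed the labels. Counts were filtered with filterByExpr, scaled with TMM and tested with edgeR 4.0.16 (quasi-likelihood F test, R 4.3.3), with Benjamini-Hochberg adjustment over all genes tested and a threshold of 0.05. The 95% intervals use the moderated degrees of freedom. Alternatives were DESeq2 1.42.0, limma-voom (limma 3.58.1), other scalings, no filter, a block on exposure time, subsets of libraries and leaving out each library. Fits were tested on simulated data. Correlations used log2 CPM with a prior count of 2. All 7 members were named in every comparison, with up to 3 genes of smallest p in each other list; genes named beyond these were chosen after their values were seen. The members and all lists were chosen with earlier results of these data known. Faxdc2, Erg28 and Mirg of those lists were not analysed here. Counts over lists cover all their genes tested; some, genes of smallest p included, are not reported here by name.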

Additional observations from a re-analysis of the deposited data

Results flagged for a closer look

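In groups of 4 to 10 libraries, 3 of 14 groups of member values held a library far from the others of its group. This was judged by the gap to its nearest neighbour against the whole range. The cutoff gives about 1 in 20 for independent values of a single population. These groups mix exposure times and library sets, and the genes share libraries, so that rate does not strictly hold here. All 3 flagged groups were of the long-term cortex libraries. Fdps was highest at 20 weeks, at 31.0 CPM against 21.0 to 22.6 CPM in the other 4. Fdft1 was lowest at 8 weeks, at 46.5 CPM against 52.4 to 54.1 CPM. Insig1 was highest at 3 weeks, at 42.9 CPM against 18.1 to 25.1 CPM, and 3 weeks is the library of that group that belongs to the early set.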

How the results depend on the processing

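Over the alternatives that kept all libraries or set aside whole subsets, 441 member values kept their direction and their side of the threshold, 10 lost a call, 1 gained one and 24 changed sign; 177 counts of calls stayed within 1.5 times their reported value and 35 did not. The cause of these changes was not tested. Scaling by total counts alone shifted the median of all genes by -0.17 (log2) at 3 to 7 days against control and by 0.19 in long against short exposure in hippocampus, so the member values are best read against those medians. Scaling by total counts without Rn45s was chosen after seeing the data. Depth limits Idi1 most, with 52 to 151 counts per library.

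Between the tissues, 0 members were called with total counts alone, with total counts without Rn45s, without the block on exposure time, within the early set or within the control and late set, and leaving out 1 time gave 0 to 2. Pathway genes called there were 3 with either scaling by total counts, 0 within the early set and 3 to 6 with 1 time left out. All genes called were 1629 without the replicate block and 656 within the early set. As a check on pairing, deviations of hippocampus and cortex libraries from the means of their tissue and set were correlated over genes. Over 9 same-time pairs r was -0.13 to 0.18 (median 0.05), and over 72 pairs of different times -0.20 to 0.18 (median -0.01). The ranges overlapped, so this check gave no clear sign of pairing. The correlation fitted for a block on exposure time was 0.30 for all UPM against control and 0.23 for the tissue difference in long against short. In the other comparisons over both tissues it was -0.05 to 0.04. The comparison between the tissues took time as a factor, as designed, and both its member calls rest on that choice. With exposure time as a random replicate block, the other comparisons over both tissues called 924 genes at 3 to 7 days against control, 45 for the slope over weeks (9 oligodendrocyte markers), 0 in the rest and 0 members; this block changed no call of a member.

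Genes called at 3 to 7 days against control were 1050 with DESeq2, 1013 with limma-voom and 37 to 568 with 1 library left out (42 and 37 without the hippocampus and the cortex control); at 8 to 20 weeks leaving out 1 library gave 0 to 4. For long against short exposure in hippocampus they were 1154 with DESeq2, 0 with limma-voom, 607 with total counts alone, 1 with RLE size factors, 256 without the filter, 250 with total counts without Rn45s, 2254 without 3 weeks and 0 to 2254 with 1 library left out; pathway genes called were 1 with total counts alone, 1 without 3 weeks and 0 to 1 with 1 library left out. In cortex they were 703 with DESeq2, 9 with limma-voom, 60 without the filter, 3093 without 3 weeks and 0 to 3093 with 1 library left out; there 1 member and 3 pathway genes were called without 3 weeks, and 0 to 1 and 0 to 3 with 1 library left out. DESeq2 called 25 genes for the tissue difference in long against short and 8 for 3 weeks against days, where no filter gave 11. The slope over weeks called 111 genes with DESeq2, 25 with total counts alone, 62 without the filter, 487 (5 oligodendrocyte markers) with 3 weeks added and 0 to 71 (0 to 11) with 1 library left out.

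Member values that changed sign were all short of the threshold. Between the tissues, Fdps had 0.013 and Idi1 -0.013 within the early set, and Insig1 had 0.13 within the control and late set. At 8 to 20 weeks against control, Hmgcs1 had -0.0065 with total counts alone, -0.0011 with DESeq2 and -0.0012 with RLE size factors. Total counts alone gave -0.080 for Fdps and -0.078 for Hmgcs1 at 3 to 7 days, and -0.020 for Hmgcs1 over all UPM, where the library set as a covariate gave -0.0024. For long against short in hippocampus, Cyp51 had -0.0048 without 3 weeks, and Fdps had 0.0019 with limma-voom, 0.17 with total counts alone and 0.076 with total counts without Rn45s. In cortex, Cyp51 had 0.078 and 0.016 with these 2 scalings, and Fdft1 had 0.027 with the former. For 3 weeks against days, Cyp51 had 0.020 with limma-voom, 0.0091 without the filter, 0.013 with total counts without Rn45s and 0.020 with the replicate block. For the slope over weeks, Fdft1 had -0.0022 with total counts without Rn45s and -0.11 with 3 weeks added, where Idi1 had -0.26.

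Leaving out 1 library in turn (1 time, so a library per tissue, between the tissues) turned the sign of some member values, none of them past the threshold. Their log2 values ranged as follows. Between the tissues, Idi1 had -0.017 to 0.13. For 8 to 20 weeks against control, Cyp51 had -0.14 to 0.0038, Hmgcs1 -0.031 to 0.030, Insig1 -0.050 to 0.13 and Sqle -0.21 to 0.13. For 3 to 7 days against control, Cyp51 had -0.20 to 0.025, Fdft1 -0.31 to 0.053, Fdps -0.0014 to 0.17, Hmgcs1 -0.013 to 0.23, Insig1 -0.072 to 0.67 and Sqle -0.34 to 0.042. For all UPM against control, Cyp51 had -0.14 to 0.023, Fdft1 -0.23 to 0.016, Insig1 -0.033 to 0.53 and Sqle -0.25 to 0.080. For long against short in hippocampus, Cyp51 had -0.15 to 0.26, Fdps -0.13 to 0.11, Idi1 -0.36 to 0.034 and Insig1 -0.14 to 0.32. For long against short in cortex, Cyp51 had -0.12 to 0.057, Fdft1 -0.23 to 0.042 and Sqle -0.089 to 0.19. For the tissue difference in long against short, Cyp51 had -0.14 to 0.27, Idi1 -0.018 to 0.37 and Sqle -0.042 to 0.24. For 3 weeks against days, Cyp51 had -0.082 to 0.11, Fdft1 -0.0027 to 0.38, Hmgcs1 -0.023 to 0.31 and Sqle -0.070 to 0.21. For the slope over weeks, Fdft1 had -0.094 to 0.10, Idi1 -0.13 to 0.38 and Sqle -0.12 to 0.20.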
